A study of Mus musculus with 4 samples.

Results

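Open chromatin was examined at 8 fibroblast growth factor (FGF) genes of limb outgrowth, of 21938 protein-coding genes in the GENCODE M21 annotation of the mouse genome. They were chosen by name and comprise 4 ligands of the apical ectodermal ridge (Fgf4, Fgf8, Fgf9 and Fgf17), the mesenchymal ligand Fgf10, and 3 receptors (Fgfr1, Fgfr2 and Fgfr3). All called peaks that overlapped a gene body or the 50 kb on either side of it were taken, which gave 78 of the 44692 regions called in the series. Each region is a set of overlapping peaks from any of the libraries. The assay was ATAC-seq, which uses Tn5 transposase to tag accessible DNA, and the tissue was the posterior part of forelimb buds of mouse embryos at E10.5 (35 somites). There were 2 wild-type (WT) and 2 Shh-/- libraries, each from the pair of buds of a single embryo, with 5000 cells per reaction. They are called WT 1, WT 2, Shh-/- 1 and Shh-/- 2 after their replicate numbers, and where 4 values are given without names they follow this order. All embryos were on a Swiss Webster background, and Shh-/- embryos lack Sonic hedgehog in every tissue through the null allele Shh tm1amc. The deposited data are lists of peaks, so a peak that is missing was not called and the chromatin may still have been open. In whole tissue, fewer cells of a type and less accessibility per cell cannot be told apart.

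FGF signals pass in both directions between the layers of the limb bud. The ridge, a strip of thickened ectoderm at the distal edge, secretes FGF4, FGF8, FGF9 and FGF17, which act on receptors such as FGFR1 in the mesenchyme beneath and keep it growing. The mesenchyme in turn secretes FGF10, which acts on the ectodermal form of FGFR2 and is needed for the ridge to form. SHH from the posterior mesenchyme and FGFs from the ridge sustain each other's expression, and Fgf4 in the ridge depends on this loop. Ridge cells are a small part of a bud, and mesenchyme makes up most of it.

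The lists differed in length, from 5589 peaks in Shh-/- 1 to 39080 in WT 1, with 11973 in WT 2 and 18459 in Shh-/- 2. The study's methods name 1 nominal sequencing depth for these libraries, but the lists hold no read counts, so the depth each library reached is unknown. No peak was called on the exons of Shh in any of the 4 libraries, WT included, so the lists give no check of the genotype. Promoters, taken from 2 kb before to 1 kb after a transcription start site (TSS), of 8 limb mesenchyme markers were called for 8, 4, 3 and 5 genes in the 4 libraries. Over all protein-coding promoters, 60.4%, 39.2%, 17.2% and 51.3% were called in these libraries, and 37.9% were called in none. Of 11 markers of ectoderm and ridge, 4, 0, 0 and 2 were called, and the promoters of Trp63, Krt5, Krt14, Cdh1, Grhl2 and Wnt7a were called in no library. Of 6 endothelial markers 2, 0, 0 and 2 were called, of 5 blood markers 2, 1, 0 and 1, and of 3 muscle progenitor markers 3, 1, 0 and 3. The part of these other cell types in the values below was not tested.

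The sequences shown here come from Fgf10, the member whose promoter was called in all 4 libraries, and for contrast from a ridge ligand and a receptor whose promoters were called in the same pair of libraries. Capitals mark exact matches, on either strand, to CTTTGAT (a TCF/LEF motif) or to CCAAT (the CCAAT box). TGGGTGGTC (GLI), AGGTGTGA (T-box) and CCGGAAGT (ETS) were also searched and had no match in these 5 stretches. The lines marked as before a TSS give the 200 bases before a TSS on the strand of the gene, from RefSeq on GRCm38.p6, and the other lines give 200 bases around a summit on the plus strand of the same build, which is the mm10 build of the peak lists. None of these bases is annotated as UTR.
Fgf10, before the TSS, chr13:118714499-118714698: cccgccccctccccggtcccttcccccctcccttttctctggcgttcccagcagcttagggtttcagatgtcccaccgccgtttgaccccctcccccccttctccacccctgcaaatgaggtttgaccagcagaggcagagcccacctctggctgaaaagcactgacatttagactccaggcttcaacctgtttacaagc
Fgf4, before the TSS, chr7:144861186-144861385: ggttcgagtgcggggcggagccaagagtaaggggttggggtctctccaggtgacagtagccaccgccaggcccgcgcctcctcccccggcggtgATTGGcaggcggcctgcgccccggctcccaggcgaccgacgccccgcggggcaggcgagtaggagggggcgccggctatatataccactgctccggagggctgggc
Fgfr3, before the TSS, chr5:33721524-33721723: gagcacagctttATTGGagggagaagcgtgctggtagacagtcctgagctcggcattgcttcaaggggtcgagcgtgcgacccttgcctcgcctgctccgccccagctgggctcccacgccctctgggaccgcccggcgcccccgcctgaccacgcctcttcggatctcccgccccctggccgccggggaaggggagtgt
Fgf10, 7.15 kb after the TSS, chr13:118721752-118721951: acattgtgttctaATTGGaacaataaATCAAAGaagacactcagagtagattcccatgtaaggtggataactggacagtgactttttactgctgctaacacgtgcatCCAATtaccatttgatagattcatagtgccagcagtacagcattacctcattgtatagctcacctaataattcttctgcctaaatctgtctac
Fgf10, 21.3 kb after the TSS, chr13:118735914-118736113: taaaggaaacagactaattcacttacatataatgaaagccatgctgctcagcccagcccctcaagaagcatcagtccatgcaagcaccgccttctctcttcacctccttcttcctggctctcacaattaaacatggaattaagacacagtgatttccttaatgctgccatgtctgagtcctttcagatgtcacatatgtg

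The G+C content of these stretches was 60% before the Fgf10 TSS, 38% and 44% at the regions 7.15 and 21.3 kb into the gene, 73% before the Fgf4 TSS and 69.5% before the Fgfr3 TSS. The region 7.15 kb into Fgf10 held a TCF/LEF match on the minus strand from base 27 and CCAAT boxes from bases 14 (minus strand) and 108 (plus strand). The stretches before Fgf4 and Fgfr3 each held a CCAAT box on the minus strand, from bases 95 and 13. Of 32851 RefSeq promoters, 29.3% held a CCAAT box in the 200 bases before the TSS, and 2.45% held the TCF/LEF letters. Promoter sequences were found in the table for 5 of the 8 genes. Fgf8, Fgf17 and Fgfr1 had no entry.

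Fgf10 was the member whose promoter was called in all 4 libraries, a pattern seen at 16.1% of protein-coding promoters. This depends on how far a promoter reaches, since the peak of Shh-/- 1 began 598 bp after the TSS. With promoters from 1 kb before to 500 bp after a TSS, Shh-/- 1 called none of the 8 member promoters and no member was called in all 4 libraries, beside 15.5% of protein-coding promoters. The promoter region, chr13:118714027-118716039, had its best peak at rank 8950 of 39080 in WT 1, where rank 1 is the highest score of the list. It ranked 7510 of 11973 in WT 2, 3521 of 5589 in Shh-/- 1 and 9727 of 18459 in Shh-/- 2. As percentages of the list these ranks were 22.9, 62.7, 63 and 52.7, so the peak stood in the upper part of the list in WT 1 and below the middle in the other three lists. Among promoters called in the same list, 60.7%, 79.9%, 73.9% and 74.7% had a better rank.

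The 4 libraries did not place the Fgf10 promoter peak at the same base. The summits of the best peaks spanned 709 bp, from 0.201 kb after the TSS in WT 1 to 0.91 kb after it in Shh-/- 2, which had another peak with its summit 0.264 kb before the TSS. Only 89 bp, chr13:118715421-118715509, were covered by a peak of every library. The peak of Shh-/- 1 was 213 bp long and that of WT 1 was 1599 bp long. The promoter of Gm16263, a neighbouring transcript, lies in the same region, and peaks cannot be assigned to either.

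Inside Fgf10, 2 regions were called in 3 libraries each, and neither was called in WT 2. Both lie outside the annotated exons of the basic transcripts. The region at chr13:118721740-118722145 was at 25.9% of the list of WT 1, 48.6% of that of Shh-/- 1 and 56.9% of that of Shh-/- 2. Its 3 summits fell within 135 bp. The region at chr13:118735788-118736272 was at 50.6% in WT 1, 48.6% in Shh-/- 1 and 21.9% in Shh-/- 2, with summits within 153 bp. The better of the WT 1 and Shh-/- 2 percentages was thus that of WT 1 at the first region and that of Shh-/- 2 at the second. Lists of different length give different percentages, and the difference was not tested. A further peak of Shh-/- 2 lay 31.9 kb after the TSS and a further peak of WT 1 lay 106 kb after it, beyond the gene.

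The ridge ligands had few peaks of their own, in counts not scaled to gene length, and none of their own regions was called in more than 2 libraries. Fgf8, the main ligand of the ridge, was the member with no promoter call in any library, a state shared by 37.9% of protein-coding genes. Its only own peak was in WT 1, in an exon 5.6 kb after the TSS (chr19:45737025-45737308), at 72.5% of the list. The best peaks near Fgf8 belonged to the promoter of Mgea5, 40.7 kb before the Fgf8 TSS, at chr19:45782649-45784153. This promoter was called in all 4 libraries at 2.14%, 7.31%, 13.2% and 3.51% of the 4 lists, ahead of every other region in the windows in each of the lists. The uncalled Fgf8 promoter thus lay within 50 kb of a promoter that all 4 lists placed near the top.

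Fgf4, the ridge ligand known to be lost from the ridge without SHH, had its promoter called in 1 library of each genotype. It ranked 19761 of 39080 in WT 1 and 11386 of 18459 in Shh-/- 2, at 50.6% and 61.7% of the lists, and was not called in WT 2 or Shh-/- 1. The summits were 0.025 kb before the TSS in WT 1 and 0.503 kb after it in Shh-/- 2, in the region chr7:144861277-144862134. Shh-/- 2 had another promoter peak 0.47 kb before the TSS. WT 1 had 2 peaks in the body, 1.26 and 2.3 kb after the TSS, at 35.1% and 86.5% of its list. In WT 1 the peak at 1.26 kb, in an annotated exon, thus ranked better than the promoter peak.

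The Fgf4 window was crowded with other genes. It holds Fgf3 and Fgf15, FGF ligands of the same cluster, whose promoters were called in WT 1 and Shh-/- 2, as was that of Fgf4. The promoter shared by LTO1 and Bc1, at chr7:144914745-144915996, was called in WT 1 (12.5% of the list), WT 2 (27.5%) and Shh-/- 2 (48.7%). It was the one region of the window called in 3 libraries.

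Fgf17 and Fgf9 were called lower in the lists. Fgf17 had a promoter call in 3 libraries, at 86.5% in WT 1, 74% in WT 2 and 74.5% in Shh-/- 2, but the 3 peaks did not overlap each other. Their summits were 1.62 kb before the TSS, 0.162 kb after it and 1.18 kb before it, so no promoter region of Fgf17 was called in more than 1 library. The promoters of its neighbours Fam160b2 (chr14:70599047-70599924) and Dmtn (chr14:70617785-70618668) were each called as 1 region in WT 1, WT 2 and Shh-/- 2. Fgf9 had a promoter call in WT 1 alone, at 86.5% of the list, 0.266 kb after a TSS. A second Fgf9 region, 1.23 kb after that TSS (chr14:58076254-58076691), was called in WT 1 at 43.9% and Shh-/- 2 at 91.4%. No other peak was called in the 142 kb window of Fgf9. When only the most 5-prime TSS of each gene was used, no library called the Fgf9 promoter.

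Each of the 3 receptors had a promoter call in WT 1 and Shh-/- 2, and none had one in Shh-/- 1. Fgfr1, which receives ridge FGFs in the mesenchyme, had 4 regions of its own with calls in 2 libraries or more. The region 11.3 kb after the nearest TSS, chr8:25542932-25543787, was called in all 4 libraries at 11.1%, 46.6%, 38.3% and 36.6% of the 4 lists. It lies in the gene body outside the basic exons, its 4 summits fell within 65 bp, and 282 bp were covered by a peak of every library. This region ranked better than the Fgfr1 promoter in each library that called both, the promoter being at 29.9%, 62.7%, no call and 61.7%.

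The Fgfr1 promoter region, chr8:25518666-25519935, was called in WT 1, WT 2 and Shh-/- 2, and the summits of the best peak of each library fell within 183 bp. WT 1 and Shh-/- 2 each had a second peak in it, with summits 0.959 and 0.622 kb after a TSS. Another shared region, 4.12 kb before the nearest basic TSS (chr8:25514426-25515392), was at 25.9% of WT 1, 74% of WT 2 and 98.1% of Shh-/- 2. Of its neighbours, the promoter of Nsd3 was called in all 4 libraries and that shared by Letm2 and D830025C05Rik in 3.

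Fgfr2, whose ectodermal form receives FGF10, had 1 region called in 3 libraries. This promoter, chr7:130265747-130266645, was at 19.3% of the list of WT 1, 31.1% of WT 2 and 42.3% of Shh-/- 2, and was not called in Shh-/- 1. The 3 summits fell within 70 bp, closer than at the promoters of Fgf10 and Fgfr1, and 518 bp were covered by all of them. In WT 1, WT 2 and Shh-/- 2, 53.4%, 45.4% and 64% of called promoters ranked better. The other Fgfr2 regions were a promoter region 1.13 kb after the TSS in WT 1 and Shh-/- 2 and single peaks of WT 1. A GENCODE transcript of Fgfr2 runs on for 2961 kb across 29 whole protein-coding genes and was left out of these values.

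Fgfr3, a receptor best known for restraining cartilage growth, had a promoter called in 1 library of each genotype, as Fgf4 had. The region chr5:33721608-33723180 was at 27.8% of WT 1 and 52.7% of Shh-/- 2. WT 2 had a peak 1.94 kb after a TSS, inside the gene but outside the promoter window, at 96.4% of its list. WT 1 had 4 further peaks in the body, 5.33 to 11.9 kb after the nearest TSS, none of them called elsewhere. The promoter of Letm1, at the edge of the window, was called in WT 1, WT 2 and Shh-/- 2.

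**Figure D1:**
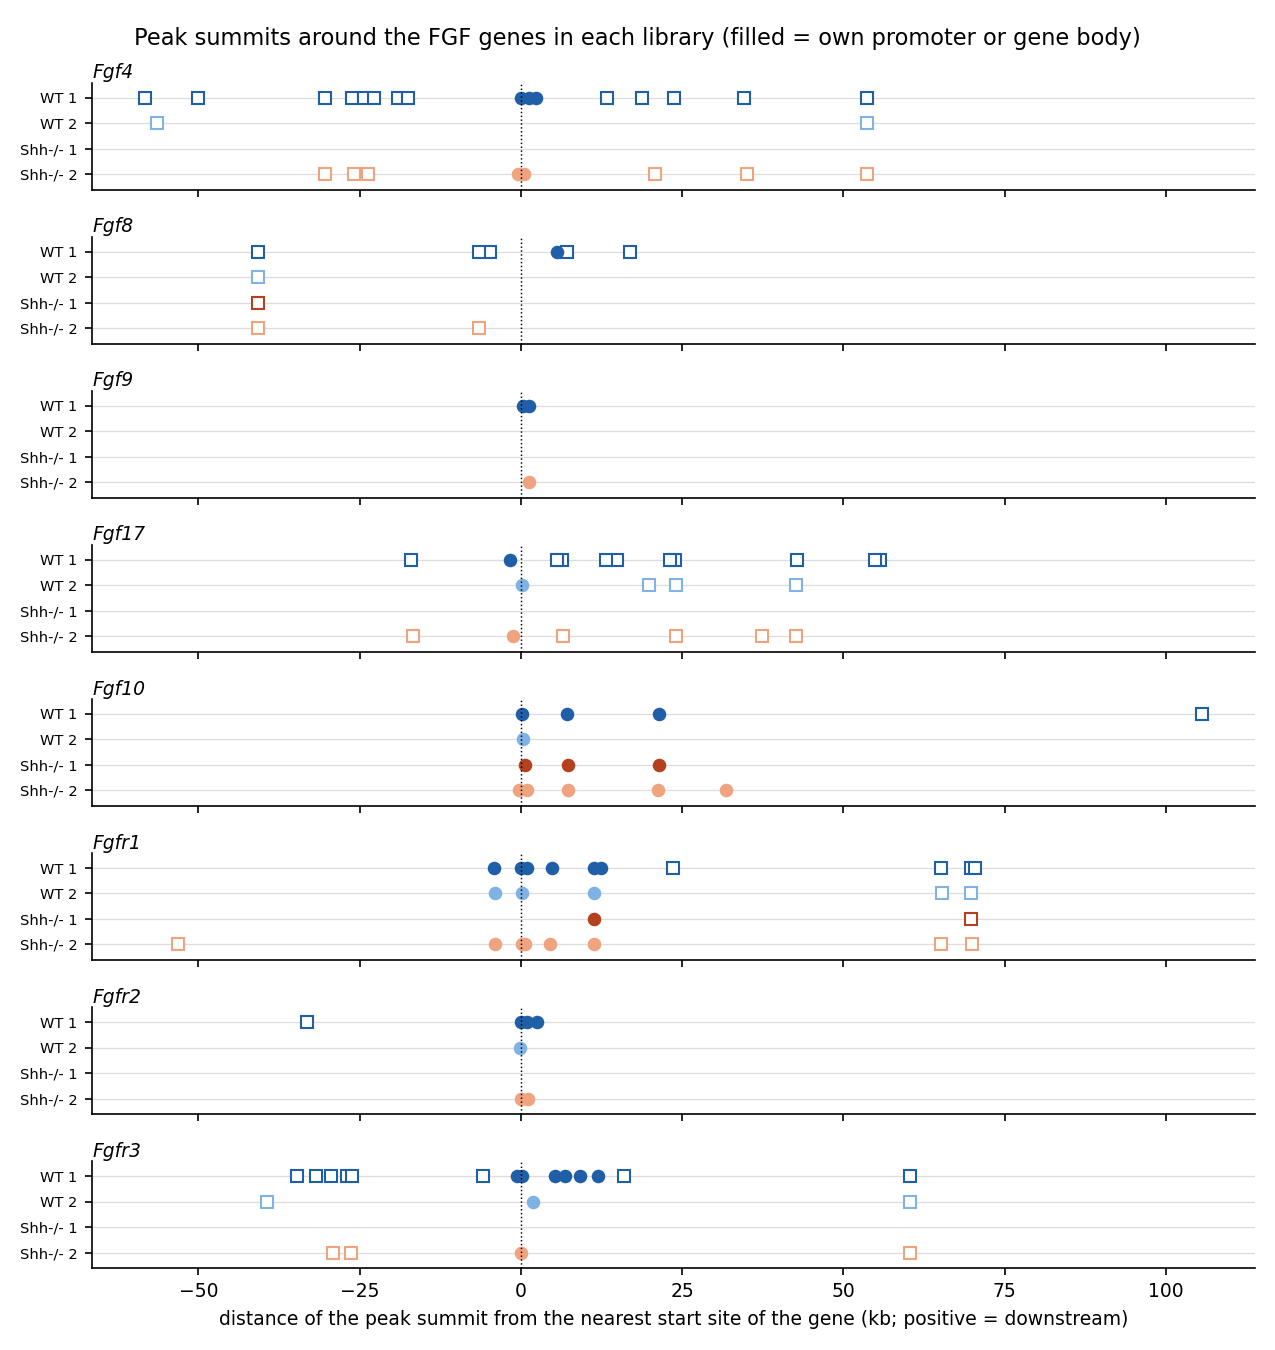
Position of each peak summit (x axis, kb from the nearest TSS of the gene, positive downstream) in the windows of the 8 genes, with a row for each library. Filled circles are peaks in the gene's own promoter or body and open squares are other peaks in the window. Fgf10 has filled circles near 0, 7.15 and 21.3 kb, Fgfr1 has an aligned column at 11.3 kb in all 4 libraries, and Fgf8 has no symbol at its TSS in any library.

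Over the 8 promoters, 7 were called in WT 1, 4 in WT 2, 1 in Shh-/- 1 and 6 in Shh-/- 2. Of all protein-coding promoters, 60.4%, 39.2%, 17.2% and 51.3% were called in the same libraries. The number of called member promoters was 5.5 ± 2.12 (SD, n = 2) in WT and 3.5 ± 3.54 (SD, n = 2) in Shh-/-, a difference of 2. It was smaller than either SD. A two-sided exact permutation test gave p = 0.667, where 0.333 is the smallest p that 2 against 2 libraries allow. Without Shh-/- 1 the difference turned to -0.5. By role, promoters were called for 3, 1, 0 and 2 of the 4 ridge ligands and for 3, 2, 0 and 3 of the 3 receptors in the 4 libraries. The difference between roles was not tested.

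**Figure D2:**
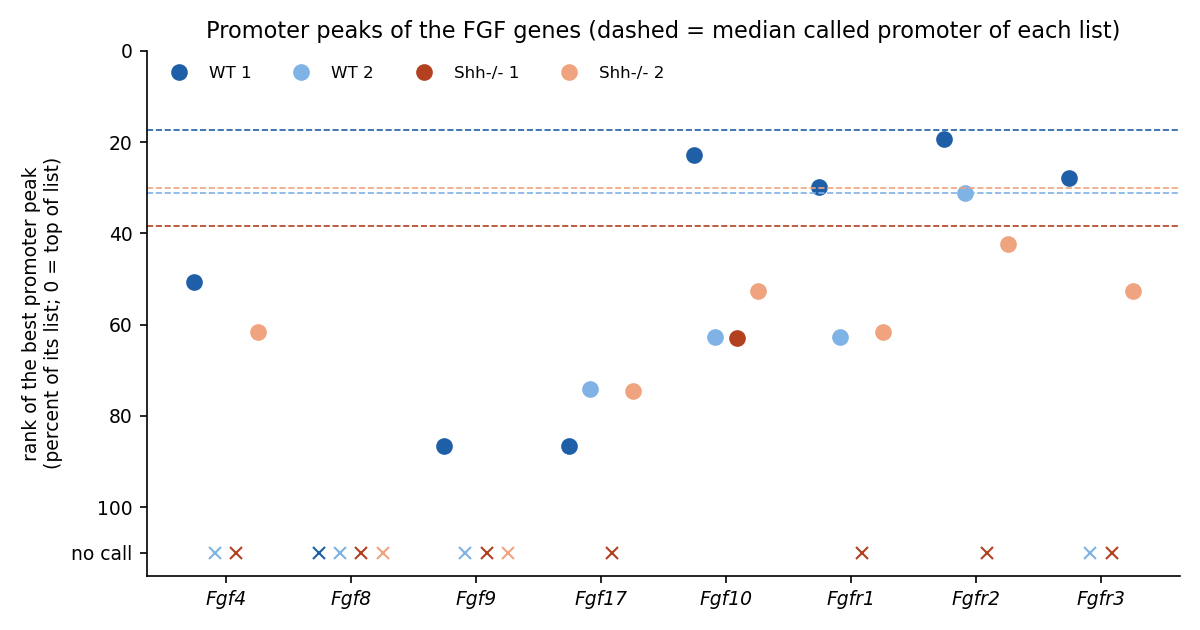
Rank of the best promoter peak of each gene in each list, as a percent of the list (y axis, 0 at the top of the list), with crosses for no call. Dashed lines are the median called protein-coding promoter of each list, at 17.4%, 31.1%, 38.3% and 30.1% for the 4 libraries. Every member's peak lies at or below the line of its own list, with Fgfr2 in WT 2 on the line at 31.1%.

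Ranks are coarse because scores are tied. WT 1 holds 252 different scores for 39080 peaks, and its rank 33803, at which the Fgf9 and Fgf17 promoters stood, was shared by 4117 peaks with a score of 20. WT 2 holds 106 different scores, Shh-/- 1 holds 112 and Shh-/- 2 holds 163. At rank 7510 of WT 2, where the Fgf10 and Fgfr1 promoters stood, 1348 peaks shared a score of 34. Members with the same rank are therefore not ordered by these lists.

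The windows of the 8 genes held 67 peaks in WT 1, 17 in WT 2, 6 in Shh-/- 1 and 36 in Shh-/- 2. The highest and the next were of different genotypes, so the groups overlapped. The mean was 42 ± 35.4 (SD, n = 2) in WT and 21 ± 21.2 (SD, n = 2) in Shh-/-. The difference of 21 peaks was smaller than either SD, and without WT 1 it turned to -4. A two-sided exact permutation test of the difference over all libraries gave p = 0.667. Per 10000 peaks of the list the 4 libraries held 17.1, 14.2, 10.7 and 19.5 peaks in the windows. These values, 15.7 ± 2.08 (SD, n = 2) in WT and 15.1 ± 6.2 (SD, n = 2) in Shh-/-, differed by 0.552 (two-sided exact permutation test, p = 1). The sign of this difference turned without WT 1, at -0.92, and without Shh-/- 1, at -3.83.

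**Figure D3:**
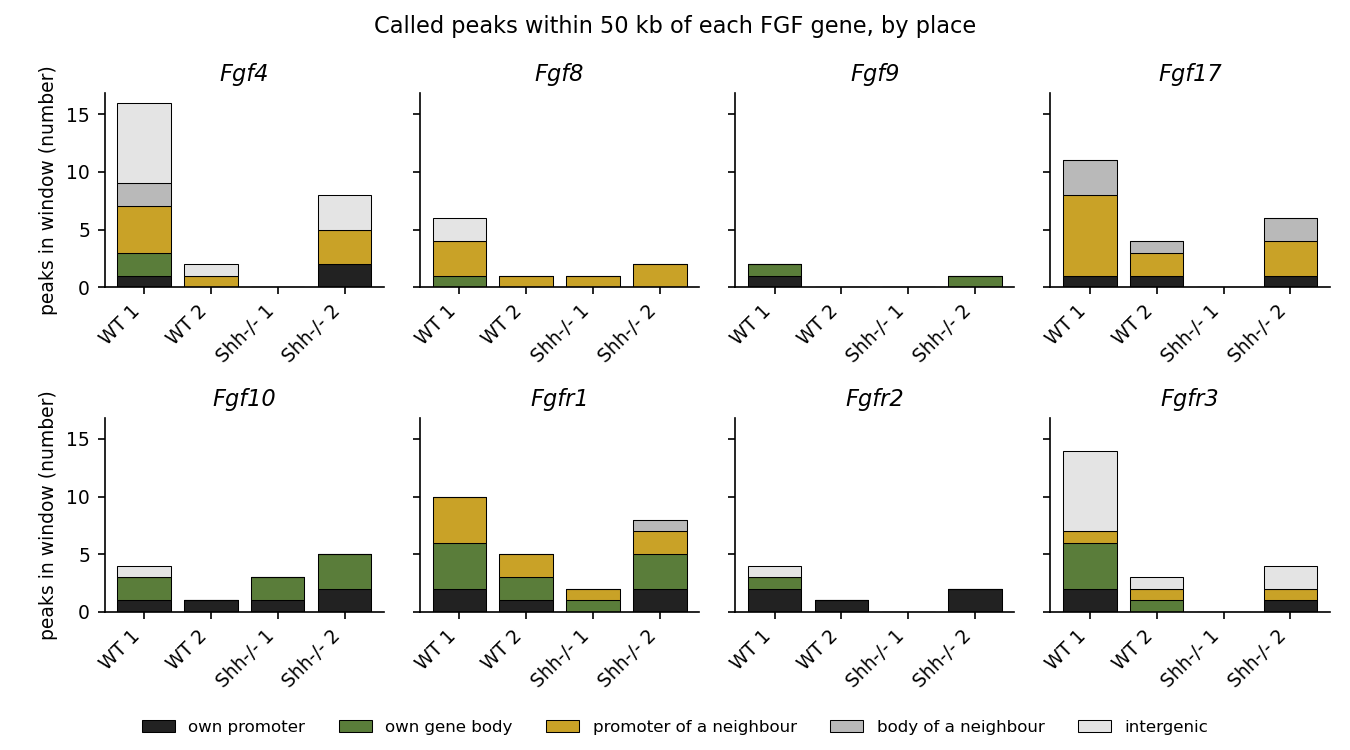
Number of peaks in the window of each gene (y axis) in the 4 libraries, stacked by where the peak lies. Fgf4 in WT 1 has the tallest bar, with 16 peaks, of which 3 are in its own promoter or body. Shh-/- 1 has bars for Fgf8, Fgf10 and Fgfr1 alone, with 1, 3 and 2 peaks.

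Pooled by role, peaks were denser around the ridge ligands and receptors than around Fgf10 in most libraries, although fewer of the ridge ligands' peaks were their own. Genes of a role were unlike. Per 100 kb, Fgf4 held 13.6, 1.7, 0 and 6.79 peaks, and Fgf9 held 1.41, 0, 0 and 0.703, below Fgf10 in each library. Fgfr3 held 12.1, 2.6, 0 and 3.47, and Fgfr2 held 1.96, 0.491, 0 and 0.981, below Fgf10 in both Shh-/- libraries. Around the ridge ligands there were 7.41, 1.48, 0.212 and 3.6 peaks per 100 kb in the 4 libraries. Around the receptors there were 5.82, 1.87, 0.416 and 2.91, and around Fgf10 1.8, 0.45, 1.35 and 2.25. Windows of all protein-coding genes together held 2.17, 0.689, 0.301 and 1.02. Ridge ligands exceeded receptors by 0.423 ± 0.911 peaks per 100 kb (SD over 4 libraries), with the sign positive in WT 1 and Shh-/- 2 and negative in the other two. Without WT 1 the difference was 0.0331, and its sign turned in lists of equal size, at -0.0969, and at a score of at least 50, at -0.134. Shh-/- 1 was the library in which the Fgf10 window was denser than those of both other roles.

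The peaks in a gene's own promoter or body numbered 7, 1, 0 and 4 for the 4 ridge ligands together. For the receptors they numbered 15, 5, 1 and 8. For Fgf10 they numbered 3, 1, 3 and 5. These counts are not scaled to gene length. The ridge ligand genes span 6.07 to 42.2 kb, the receptors 15.4 to 104 kb and Fgf10 122 kb. With gene body and promoter alone, ridge ligands exceeded receptors by 0.105 peaks per 100 kb (mean of 4 libraries). Shh-/- 1, with the shortest list, thus called 3 peaks of Fgf10, 1 of Fgfr1 and none of any other member.

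Of the 78 regions, 4 (5.13%) were called in all 4 libraries, against 7.97% of all regions of the series. They are the Fgf10 promoter, the Fgfr1 region at 11.3 kb and the promoters of Mgea5 and Nsd3, which are neighbours. In 3 or more libraries 14 regions (17.9%) were called, against 21.6% of all regions. Of these, 7 were promoters of neighbours, 3 were promoters of members (Fgf10, Fgfr1 and Fgfr2) and 4 lay in the bodies of Fgf10 and Fgfr1. None of the 22 intergenic regions and none of the 8 in the bodies of other genes reached 3 libraries. The shares of each such class over the series are not given here, so these counts have no background. WT 1 alone called 39 of the 78 regions, or 50%, beside 51.6% of all regions.

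The comparison of genotypes by region asks which sites need SHH to be open. No region in the 8 windows was WT-specific, meaning a call in WT 1 and WT 2 with none in either mutant library, and none was Shh-specific, the reverse pattern. Across the series these patterns took 2.09% and 0.396% of regions. All 12 regions in the windows called in both WT libraries were also called in Shh-/- 2, as were 89.8% of the 9574 such regions of the series. All 6 regions called in both Shh-/- libraries were also called in WT 1, as were 96.2% of the 4756 such regions. The count of WT-specific regions rests on single libraries, being 39 without WT 2, 8 without Shh-/- 2 and 5 without WT 1. The 39 were the regions called in WT 1 alone, 50% beside 51.6% of all regions. The 5 were those called in WT 2 alone, 6.41% beside 4.28%. The count of Shh-specific regions became 8 without Shh-/- 1 and 2 without WT 1. These 8 were called in Shh-/- 2 alone, 10.3% beside 7.33%. Shares over the series for the remaining counts are not given here.

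With each list limited to its 5589 best peaks, 1 region of each kind appeared among the 11 in the windows. The region 21.3 kb into Fgf10 became Shh-specific, and it did so also, as 1 of 28 regions, when peaks with a score under 50 were left out. The shares of all regions with these patterns at these settings are not given here. The LTO1 and Bc1 promoter in the Fgf4 window became WT-specific in the lists of equal size. In those lists 4, 6, 6 and 4 peaks fell in the windows, and the called promoters were that of Fgfr2 in WT 2 and that of Fgf10 in Shh-/- 1.

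Calls in Shh-/- 1 went with base composition, which is given as a description with no test. Of the 14 regions called in 3 or more libraries, the 6 that Shh-/- 1 called had a G+C content of 38% to 65% in the 200 bp around the summit, with a median of 57.2%. The 8 that it did not call had 60% to 79.5%, with a median of 72.8%. All 8 were by definition called in WT 2, whereas the Fgf10 body regions at 38% and 44%, called in Shh-/- 1, were not. The sets thus also differ in WT 2, whose regions had a median of 63% over the series, beside 58% for Shh-/- 1. Over all regions called in 3 or more libraries the medians were 60% for the 4623 that Shh-/- 1 called and 68.5% for the 5034 that it did not. Regions around Fgf10 had a median of 40%, those of the ridge ligands 55.5% and those of the receptors 58.5%. The part of base composition in the calls at Fgf10 was not tested. Of the 8155 promoters called in the other 3 libraries, 43.2% were called in Shh-/- 1, and of the 4 members among them (Fgf17, Fgf10, Fgfr1 and Fgfr2) it called Fgf10, a call lost with promoters ending 500 bp after the TSS.

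**Figure D4:**
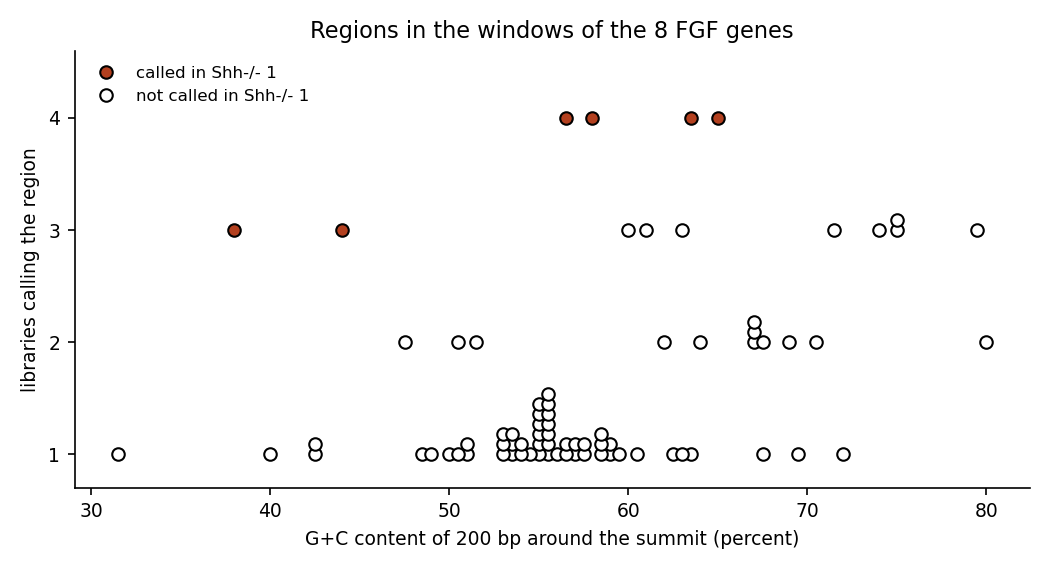
G+C content of the 200 bp around the summit (x axis, percent) of each of the 78 regions against the number of libraries that called it (y axis), with points stacked upward where values coincide. Filled points were called in Shh-/- 1. The 6 filled points lie at 65% or below, and the open points at 3 libraries lie at 60% or above.

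Among the other genes of the FGF pathway, those of the response were called in most cases in each library. Of 9 response genes and feedback inhibitors, promoters were called for 9, 7, 8 and 9 in the 4 libraries, and 6 were called in all 4 libraries (Spry2, Spry4, Spred1, Spred2, Dusp6 and Etv5). The shares over all protein-coding promoters were 60.4%, 39.2%, 17.2% and 51.3%, and 16.1% in all 4 libraries. Etv5, an ETS factor induced by FGF signaling, was at 2.33%, 2.56%, 7.37% and 2.65% of the lists. Dusp6, a phosphatase that turns off ERK, was at 9.14%, 19.6%, 55.5% and 15.4%. Spry2, a Sprouty inhibitor of receptor signaling, was at 6.24%, 15.7%, 63% and 5.78%. Shh-/- 1 called 8 of the 9, with Spry1 the exception, beside 17.2% of all promoters in that library. Each of the Shh-/- libraries thus listed promoters of most FGF response genes.

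The 16 signal transducers between receptor and ERK had promoter calls for 16, 13, 4 and 16 genes, with Grb2, Gab1 and Hras among those in all 4 libraries. Over all protein-coding promoters the shares were 60.4%, 39.2%, 17.2% and 51.3%, with 16.1% called in all 4 libraries and 37.9% in none. The 17 other ligands had calls for 12, 3, 2 and 8. Fgf18 was the other ligand called in all 4 libraries, at 12.5%, 62.7%, 63% and 36.6% of the lists, and Fgf1, Fgf6, Fgf7, Fgf16 and Fgf23 were called in none. Of the 4 other receptors and co-receptors, 3, 1, 0 and 2 were called, and Klb, a co-receptor for endocrine FGFs, was called in none. Fgfrl1, a receptor that lacks the kinase domain, was at 8.45%, 17.5% and 23.3% of the lists in the 3 libraries that called it, and Shh-/- 1 was not among them.

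**Figure D5:**
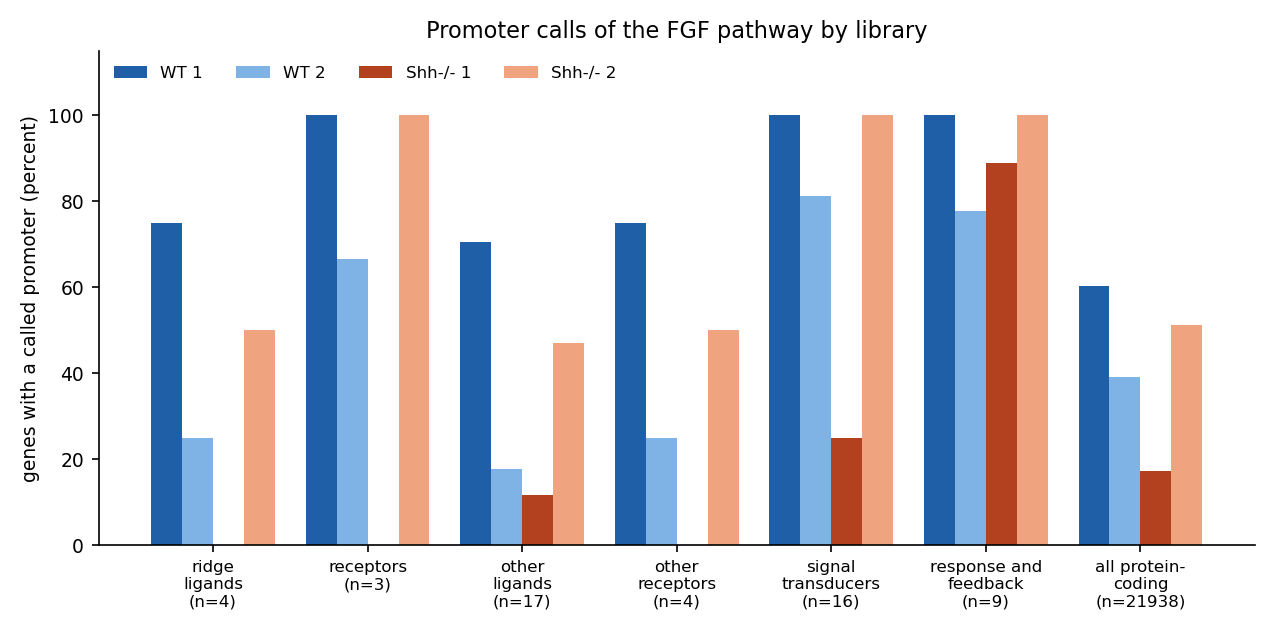
Share of genes with a called promoter (y axis, percent) in each library for the groups of the FGF pathway and for all protein-coding genes, with the number of genes under each group. The bar of Shh-/- 1 is at 0 for the ridge ligands and receptors, stands for 8 of 9 genes in the response group, and is at 17.2% for all genes.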

How the data were processed

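The libraries were made from 5000 cells each with 18 cycles of PCR and sequenced as paired ends. The submitters' processing notes name Bowtie2 2.2.5 and MACS2 2.1.0 with the mm10 build. The authors called peaks in each library separately, at a q-value of 0.05 with a window of 200 bp. Read filters and any shift for the Tn5 cut are not given in the sources used here. The deposited lists give each peak's coordinates, summit and score, by the caller's format 10 times the highest −log10 q, a scale the files do not state. The deposited score was used only to rank peaks within a list (rank 1 plus the number of higher scores), because list length and score also move with depth. The study's methods name 1 nominal depth, and the depth reached by each library is unknown.

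Peaks sharing at least 1 bp were merged across libraries with Python 3.11.15 and numpy 2.4.6, and the code was tested on simulated data. Genes came from GENCODE M21, with TSSs and exons from its basic transcripts. The bodies of the 8 genes spanned all their annotated transcripts, basic or not, apart from 1 of Fgfr2. That transcript, of 2961 kb, was left out after the data had been seen. Promoters ran from 2 kb before to 1 kb after a TSS, and windows reached 50 kb around gene bodies. A body region is in a gene but in no promoter. Groups came from the sample titles. Each library came from a single embryo, and the labels name no litter, day or batch, so what else separates replicates is unknown. WT and Shh-/- were compared by two-sided exact permutation tests over libraries. G+C content and motifs were read from 200 bp around the best summit. The alternatives were lists of equal size, a score of at least 50, other windows, promoters and overlaps, each library left out, and a block by replicate number. The genes and lists were chosen with earlier results of these data known. All 8 genes were named, with regions called in 3 or more libraries or lying at a member's promoter, and genes of other FGF lists called in all libraries or in none. Spry1, Fgfrl1, Fgf3 and Fgf15, and the body regions called in fewer libraries, were named after their values were seen.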

Additional observations from a re-analysis of the deposited data

How the results depend on the processing

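No comparison of genotypes passed its test under any alternative, since 2 against 2 libraries allow no p below 0.333, and the signs were not stable. The difference in peaks in the windows (WT minus Shh-/-) ranged from -4 to 46 as each library was left out. Per 10000 peaks that range was -3.83 to 4.94, and the difference was -3.56 at a score of at least 50, -0.176 and -3.87 with windows of 25 and 100 kb, -1.81 with gene body and promoter alone, and -1.82 with the full Fgfr2 record. The difference in called promoters ranged from -0.5 to 4.5 as libraries were left out and was -0.5 at a score of at least 50. With lists of equal size all of these differences were 0.

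WT-specific regions numbered 1 of 11 in lists of equal size and 1 of 159 with the full Fgfr2 record, and 0 to 39 of 78 as libraries were left out. Shh-specific regions numbered 1 of 11 in lists of equal size, 1 of 28 at a score of at least 50, and 0 to 8 of 78 as libraries were left out. Regions in all 4 libraries numbered 2 of 11 in lists of equal size and 2 of 28 at a score of at least 50. They numbered 2 of 57 with windows of 25 kb and 2 of 31 with gene body and promoter alone. With windows of 100 kb they numbered 10 of 132, and with the full Fgfr2 record 10 of 159. The shares of all regions with these patterns at each setting are not given here beyond those above. Ridge ligands minus receptors came to 1.48 peaks per 100 kb with windows of 100 kb and 1.82 with the full Fgfr2 record, turned to -0.0969 in lists of equal size and -0.134 at a score of at least 50, and ranged from 0.0331 (without WT 1) to 0.694 as libraries were left out. With tied scores ordered by position, the Fgf4 and Fgf9 promoters moved to 59% and 89.5% of the list of WT 1 and that of Fgfr1 from 62.7% to 72.6% of WT 2. With promoters from 1 kb before to 500 bp after a TSS, Fgf10 moved from 52.7% to 61.7% of Shh-/- 2 and lost its call in Shh-/- 1, and Fgf17 lost its call in WT 1. When only the most 5-prime TSS of each gene was used, Fgf9 lost its call in WT 1. The causes of these shifts were not tested.

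Replicate numbers are shared between the genotypes but mark no common litter or day in the labels. With the replicate block the differences were 21 peaks, 0.552 per 10000 peaks and 2 promoters (exact sign-flip permutation test, p = 1 for each, the smallest possible being 0.5). The deviations of same-numbered libraries over promoter calls correlated at -0.215, and with crossed numbers, a pairing added after seeing the data, no comparison could pass either. The full Fgfr2 record was also added after seeing the data. It spans 2961 kb and brought 73, 17, 10 and 35 peaks into its window in WT 1, WT 2, Shh-/- 1 and Shh-/- 2.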

Other observations

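Over the 78 regions, matches to 5 short motifs were counted in the 200 bp around the best summit on both strands. The CCAAT box (CCAAT) was found in 18 regions, or 23.1%, beside 23.4% of all 44692 regions. The TCF/LEF letters (CTTTGAT) were found in 4 regions, 5.13% beside 2.4%, lying near Fgf4, Fgf17, Fgf10 and Fgfr3. The ETS letters (CCGGAAGT) were found in 2 regions near Fgf4 and Fgf17, 2.56% beside 1.75%. The T-box letters (AGGTGTGA) were found in 1 region, near Fgf8, 1.28% beside 0.938%. The GLI letters (TGGGTGGTC) were found in 0 of the 78 regions, beside 0.304% of all regions. These are exact letters in a short window, and no count was tested.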
